A study of Mus musculus with 24 samples.

Results

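The cytosolic ribosomal protein genes encode the protein components of the ribosome that translates nuclear-encoded messenger RNA. The ribosome is built from a large and a small subunit, in which ribosomal RNA does the chemistry and the proteins shape the decoding centre, the peptide exit tunnel and the landing site of the translation factors. Cells make the proteins in matched amounts, and their messenger RNAs belong to the class with a terminal oligopyrimidine tract, a run of C and T at the 5′ end through which mTOR signalling acts on their translation. In the inner ear, ribosomal proteins supply the protein synthesis of hair cells, supporting cells and neurons alike. The set was chosen with earlier results of these data known, and its members were taken by symbol. The rule was Rpl or Rps with a number, with or without a closing a, x or y, together with Rplp0, Rplp1, Rplp2 and Rpsa. The rule found 76 genes among the 18440 rows of the inner ear table and the same number among the 25190 rows of the organoid table. Of the 76 genes, 46 encode proteins of the large subunit and 30 of the small subunit, and all 76 passed the filter on low counts in both tables.

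RNA was measured by bulk sequencing in 24 mouse libraries. Of these, 12 came from the inner ear tissue of male wild-type C57BL6/J mice with the bone removed, 4 mice at each of 3, 11 and 20 months of age and without treatment. The other 12 came from inner ear organoids grown from the cochlear epithelium of newborn wild-type mice, 3 libraries in each of 4 groups. The groups were control, TNF-α (tumour necrosis factor, an inflammatory cytokine), lentiviral knockdown of RBM25 (a splicing factor), and the knockdown together with TNF-α. All organoid groups were expanded and differentiated in culture, and the sources used here do not give the pups' strain and sex. The sample titles write KO for the RBM25 groups where the protocol describes a knockdown, and the protocol is followed here. No source used here gives the TNF-α dose or its duration, the control vector, or whether the organoid libraries came from separate cultures, so p-values for organoids measure only the spread between these libraries.

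Library totals ran from 30599012 to 38451292 counts for inner ear tissue and from 33802411 to 37048422 for organoids, and CPM values are counts scaled to these totals after TMM normalization. The lowest count of any ribosomal protein gene in any library was 2097. Rbm25, the knockdown target, was read at 142, 148 and 144 CPM in control, 96.9, 94.1 and 92.7 in knockdown, 149.9, 163 and 173 in TNF and 103, 122 and 108 in knockdown plus TNF libraries, so the knockdown groups lay below their own controls without reaching 0 (edgeR log2 fold change -0.61 ± 0.06 SE, adjusted p = 1.01e-07). Tnf itself was at 0 in all control and knockdown libraries and at 1.12 to 1.30 and 1.60 to 2.22 CPM in the 2 groups given TNF. Hair cell and supporting cell markers were all detected in both tables (10 of 10 and 12 of 12), while in the organoids only 5 of 9 macrophage markers were listed, at a summed level of 0.86 to 2.25 CPM over the 4 groups. In bulk samples fewer cells of a type and less RNA per cell cannot be told apart.

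The tract for which these messenger RNAs are known lies at the transcription start. The sequence around that start is shown for 8 genes with a single RefSeq promoter entry outside the chromosome left out here. They are the 4 at the top and 4 at the bottom of such genes by TNF log2 fold change. Each line runs 5′ to 3′ on the gene's strand from 30 bases before to 20 bases after the start of the RefSeq promoter entry (build GRCm38.p6), which in Rps12 and Rps9 lies inside the gene's annotated span and in the other 6 at its end, and the capitals mark the longest unbroken run of C and T. The marked run lies wholly before that start in Rps28 and Rpl41, and wholly after it in Rpl12, Rplp0 and Rps12. A marked run is thus not by itself a tract at the 5′ end of the RNA.
Rpl12: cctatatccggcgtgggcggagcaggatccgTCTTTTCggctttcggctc
Rplp0: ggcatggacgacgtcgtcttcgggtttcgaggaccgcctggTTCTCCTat
Rps28: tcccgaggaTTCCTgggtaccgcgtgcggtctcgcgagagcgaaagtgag
Rps12: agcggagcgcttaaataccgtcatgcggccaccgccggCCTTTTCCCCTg
Rpl27a: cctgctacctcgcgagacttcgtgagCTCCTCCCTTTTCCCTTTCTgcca
Rps9: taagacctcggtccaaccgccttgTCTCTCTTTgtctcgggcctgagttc
Rpl41: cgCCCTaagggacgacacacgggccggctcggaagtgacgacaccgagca
Rps27: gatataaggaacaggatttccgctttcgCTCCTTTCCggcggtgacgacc
The windows lie at chr2:32961682-32961731 (plus strand), chr5:115559437-115559486 (plus), chr17:33824543-33824592 (minus), chr10:23787190-23787239 (minus), chr7:109519165-109519214 (plus), chr7:3704011-3704060 (plus), chr10:128549149-128549198 (minus) and chr3:90213629-90213678 (minus). The longest runs were 7, 7, 5 and 11 bases in the 4 genes with the highest TNF difference and 20, 9, 4 and 9 in the 4 with the lowest. RefSeq promoter entries matched 56 of the 76 genes by symbol, with 66 entries in all. A run of 8 or more pyrimidines stood in this window on the sense strand in 47.0% of the 66 entries against 20.2% of all 32851 entries, and on the opposite strand in 12.1% against 21.9%. The letters CTTTCC stood in the window on the sense strand in 16.7% against 2.44%. In the whole entry of 300 bases, on either strand, CCGGAAG stood in 36.4% against 8.86% and AAGATGG in 16.7% against 6.34%. TATAAA on the sense strand stood in 7.58% against 8.32%, and the NF-kB consensus on either strand in 6.06% against 6.93%. CTTTCC overlaps the pyrimidine run by its own letters. By TNF difference the 25 genes with a run of 8 or more had a median log2 fold change of 0.50 (0.30 to 0.62) and the 23 with a shorter run 0.51 (0.31 to 0.84).

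Levels were compared between genes only per length, in FPKM, the fragment density per gene length and library depth that the authors deposited. By mean FPKM the 76 genes ran from 26.7 (Rps15a) to 837 (Rplp1) in the inner ear and from 54.9 to 2099, for the same genes, across the organoids, with medians of 257 and 442. Of the 100 genes with the highest mean FPKM, 21 for inner ear tissue and 40 for organoids were ribosomal protein genes. Rplp1, an acidic protein of the stalk that recruits elongation factors, led both tables, with 638, 875, 883 and 815 FPKM at 3 months and 1744, 1801 and 1788 in control organoids. Rpl41, the smallest protein of the large subunit, came next in both, at a mean of 682 and 1262 FPKM. In the inner ear Rps29 (549 FPKM), Rpl13a (513), Rps14 (509.8), Rpl28 (482), Rps27 (479.5) and Rpl26 (473) followed. In the organoids Rpl10 (1154 FPKM), Rpl7 (1013), Rps9 (952), Rps14 (875) and Rps15 (767) were among the highest that followed. Across the 76 genes the log2 mean FPKM of the 2 tables correlated at r = 0.92 (rho = 0.90). This is a description over genes, which share the libraries of each table. Gene lengths were the same in both tables for many genes but not all (Rpl7a 986 and 1173 bases). The organoid means pool libraries with and without TNF.

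Summed over the 76 genes, ribosomal proteins took 2.55, 2.61 and 2.63% of the library counts in control organoids and 3.86, 3.76 and 3.59% with TNF. In knockdown organoids the share was 2.44, 2.50 and 2.78%, and with knockdown plus TNF 3.55, 3.68 and 3.49%. Every library given TNF lay above every library without it, and the knockdown groups overlapped the groups with the same TNF status. In the inner ear the share was 1.44, 1.73, 1.70 and 1.72% at 3 months, 1.72, 1.45, 1.55 and 1.59% at 11 months and 2.09, 1.86, 1.68 and 1.81% at 20 months, and the 3 ages overlapped. The ratio of large subunit to small subunit counts stayed between 1.56 and 1.61 over the 12 organoid libraries and between 1.59 and 1.64 over the 12 inner ear libraries.

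**Figure D1:**
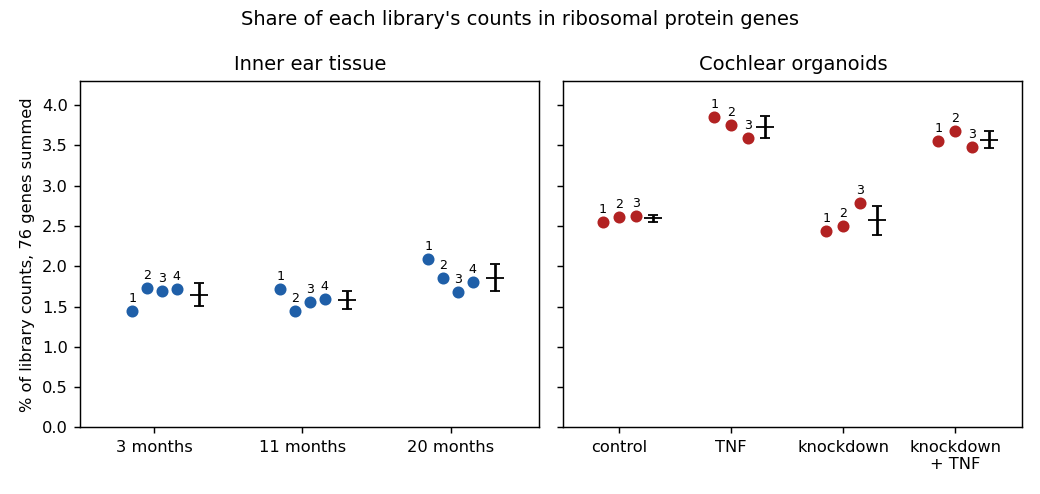
Share of each library's counts held by the 76 ribosomal protein genes (y axis, percent), for 12 inner ear libraries by age and 12 organoid libraries by group; points are libraries labelled by replicate number, and the bar beside each group gives its mean and SD. The 6 organoid libraries given TNF lie between 3.49% and 3.86%, above the 6 without it, and the inner ear ages overlap.

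The comparison of TNF with control asked which genes the cytokine changes in organoids without the knockdown. All 76 ribosomal protein genes rose, by a median log2 fold change of 0.51 (1.42-fold), with the 3 TNF libraries above the 3 control libraries in each of the 76. The set was chosen with earlier results of these data known, so this count is a description and not an independent test. Over all 15888 genes tested, 23.3% were called higher and 24.2% lower (edgeR quasi-likelihood test, adjusted p under 0.05), 27.8% had TNF libraries that all lay above the controls, and the median log2 fold change was -0.02. The range over the 76 genes was narrow, from 0.24 (1.18-fold) in Rpl7 to 0.84 (1.78-fold) in Rpl12, and 13 genes exceeded 1.5-fold. The 46 large subunit genes had a median of 0.50 and the 30 small subunit genes of 0.52. The standard errors of the 76 log2 fold changes ran from 0.05 to 0.14, so the top and bottom of the range lay further apart than these errors. Of the 12 supporting cell markers 4 fell and 1 rose (median log2 fold change -0.01, none at 0 in all libraries), while their summed level was 14434 to 14909 CPM in control and 7280 to 8083 CPM in TNF libraries. Of 25 cell cycle genes 9 rose and 1 fell, and of 10 hair cell markers 0 rose and 1 fell. The part of these genes' cells in the ribosomal protein result was not tested.

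**Figure D2:**
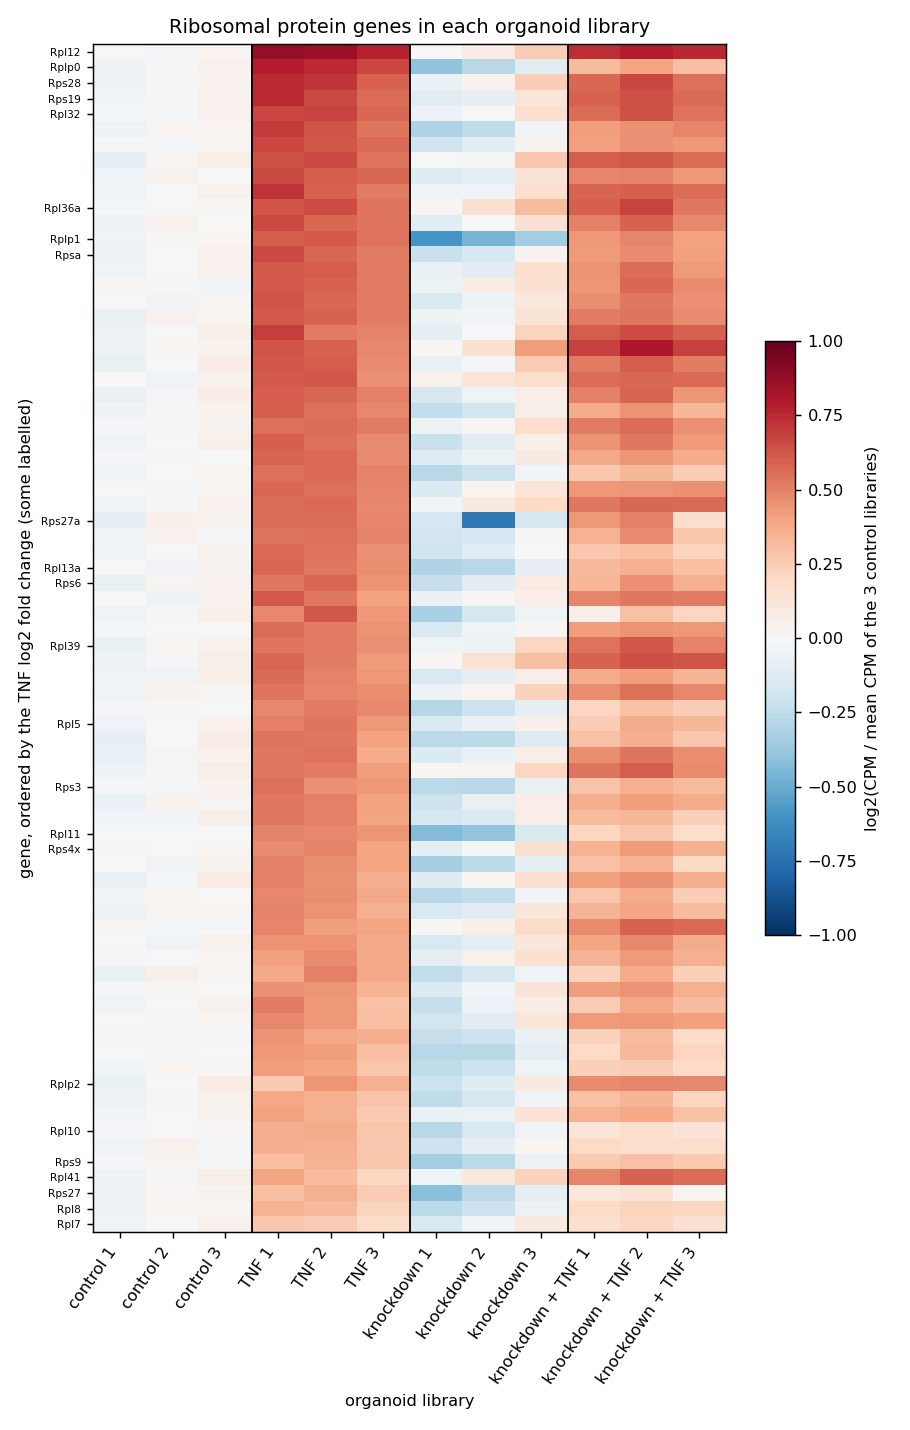
Log2 ratio of each organoid library's CPM to the mean CPM of the 3 control libraries (colour, from -1 to 1), for the 76 ribosomal protein genes (rows, ordered by the TNF log2 fold change, some labelled by name) in the 12 organoid libraries (columns). The 3 TNF columns and the 3 knockdown plus TNF columns are higher across the rows, and the knockdown columns are lower mainly in Rplp1, Rplp0, Rpl11, Rps27 and, in replicate 2, Rps27a.

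The genes of the stalk, where elongation factors dock, spanned most of that range. Rpl12, which anchors the stalk to the large subunit, was read at 229.5, 225 and 232 CPM in control and 421, 414 and 390.2 CPM in TNF libraries, the largest rise among the 76 genes (edgeR log2 fold change 0.84 ± 0.06 SE, adjusted p = 6.42e-10). Rplp0, the stalk's central protein, followed, at 745, 777 and 796 CPM in control and 1333, 1293 and 1229.6 CPM with TNF (edgeR log2 fold change 0.73 ± 0.06 SE, adjusted p = 2.51e-08). Neither gene's groups overlapped. Rplp1 rose from 857 ± 17.0 to 1289 ± 36.5 CPM (mean ± SD, n = 3 each), a log2 fold change of 0.59. Rplp2, its partner in the stalk, rose less, from 175, 183 and 193 to 220.0, 249.8 and 235 CPM, with a log2 fold change of 0.36 (SE 0.07).

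Small subunit genes with large rises were Rps28, whose protein lies where messenger RNA leaves the subunit, and Rps19, the gene most often mutated in Diamond-Blackfan anaemia. Rps28 was at 127, 132 and 134 CPM in control and 219, 215 and 197 CPM in TNF libraries (edgeR log2 fold change 0.68 ± 0.07 SE, adjusted p = 2.38e-07). Rps19 was at 252, 254 and 265 and 432, 407 and 378 CPM (edgeR log2 fold change 0.66 ± 0.06 SE, adjusted p = 4.43e-08), and the large subunit gene Rpl32 had a log2 fold change of 0.64 (SE 0.06). The smallest rises were those of Rpl7, Rpl8, Rps27, Rpl41 and Rps9, at log2 fold changes of 0.24, 0.30, 0.30, 0.31 and 0.31. Rpl7 was at 856, 881 and 908 CPM in control and 1063, 1053 and 1002 CPM in TNF libraries (edgeR adjusted p = 0.00215), and its groups did not overlap either. Rpl8 lies beside the peptidyl transferase centre and Rps9 by the entry of the messenger RNA channel. Rpl7, Rpl41 and Rps9 were also among the genes with the highest FPKM in the organoids. Over the 76 genes the TNF log2 fold change went weakly with log2 mean CPM (r = -0.10, rho = -0.04), which is not scaled to length. Its relation to FPKM was not tested.

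Rpl5 and Rpl11, which with 5S ribosomal RNA form the particle that binds MDM2 when ribosome assembly fails, rose alike. Rpl5 went from 577 ± 16.3 to 811 ± 29.0 CPM (mean ± SD, n = 3 each) and Rpl11 from 302 ± 0.401 to 418 ± 8.87 CPM, with log2 fold changes of 0.49 and 0.47. The other genes with roles known outside the ribosome also rose. Rpsa, the small subunit protein that is also a laminin receptor precursor, had a log2 fold change of 0.58. Rpl13a, which interferon signalling releases from the ribosome to silence inflammatory messenger RNAs, went from 691 ± 15.1 to 992 ± 38.1 CPM (log2 fold change 0.52). Rps6, the substrate of S6 kinase, had a log2 fold change of 0.52, Rps27a, made as a fusion with ubiquitin, of 0.54, and Rps3, of the messenger RNA entry channel and also known as an NF-kB partner, of 0.48. Rps27a had the largest standard error of the 76 genes, 0.14. The X-linked genes Rpl36a, Rpl39, Rps4x and Rpl10 had log2 fold changes of 0.60, 0.50, 0.46 and 0.34. The 7 genes of the exit tunnel list had a median of 0.52 and the 6 of the entry and decoding list 0.50.

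With RBM25 knocked down, TNF was again followed by higher levels of all 76 genes (knockdown plus TNF against knockdown), by a median log2 fold change of 0.46 (1.38-fold). The background was 22.8% of genes called higher and 22% lower. In all 76 the knockdown plus TNF libraries lay above the knockdown libraries, beside 26.8% of all genes. The set was chosen with earlier results of these data known, so these counts too are a description and not an independent test. Rplp1 had the largest difference, from 569, 621 and 672 CPM in knockdown to 1155, 1202 and 1134 CPM in knockdown plus TNF libraries (edgeR log2 fold change 0.91 ± 0.06 SE, adjusted p = 3.13e-10). Rps27a followed at 0.71 with a wide error (SE 0.14), from 246, 168 and 244 to 373, 391 and 312 CPM, replicate 2 being the low knockdown library. Rps12, Rpl12 and Rps19 came next, at 0.65, 0.64 and 0.62. Among those at the low end were Rpl7 (0.20), Rpl27a (0.27), Rpl10 (0.29) and Rps10 (0.34). Rpl7 was the gene with the smallest difference both without and with the knockdown, at 795, 865 and 939 CPM in knockdown and 991, 1017 and 982 CPM in knockdown plus TNF libraries. Of the 12 supporting cell markers 5 fell and 2 rose, with sums of 10952 to 11524 CPM in knockdown and 6317 to 6652 CPM in knockdown plus TNF libraries. Of the 10 hair cell markers 6 fell and 0 rose, with sums of 569 to 809.7 CPM and 424 to 526 CPM. Their part was not tested here either.

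**Figure D3:**
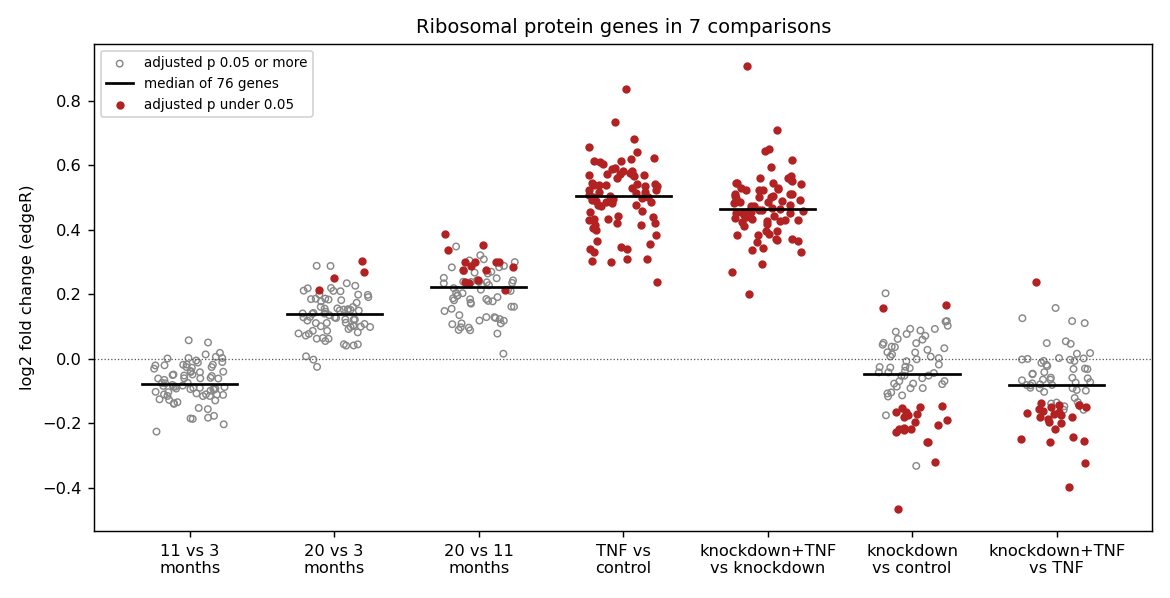
Log2 fold change (y axis) of each of the 76 ribosomal protein genes in 7 comparisons (x axis); filled points passed an edgeR adjusted p under 0.05, open points did not, and the bar is the median. The 2 TNF comparisons lie wholly above 0 and all their points are filled. The 11 against 3 months comparison has no filled point, that of 20 against 11 months lies wholly above 0 with 15 filled, and the knockdown comparisons straddle 0 with 22 and 25 filled.

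The 2 TNF comparisons share no library, and across the 76 genes their log2 fold changes correlated at r = 0.62 (rho = 0.63), a description over genes that share the same 4 groups' depth and lengths. The test of the difference between them, the interaction (TNF difference with knockdown minus that without), called 1 of the 76 genes higher and 0 lower, beside 7.54% and 4.81% of all genes. At an unadjusted p under 0.05 there were 3 of 76, and the DESeq2 Wald test called 1 lower. The gene called was Rplp1, at 0.32 (SE 0.08, edgeR adjusted p = 0.0145). Its level was 838, 865 and 869 CPM in control, 1307, 1313 and 1247 in TNF, 569, 621 and 672 in knockdown and 1155, 1202 and 1134 in knockdown plus TNF libraries. The knockdown libraries were thus the low group, and the libraries of the 2 TNF groups lay closer together without overlapping. Rplp1 lies at chr9:61913283-61914510 (GRCm38.p6). Rplp2, Rps9, Rps27a and Rpl41 had the next highest interaction values, at 0.20, 0.18, 0.17 and 0.14, and Rpl12, Rpl36a, Rps28, Rpl4 and Rps23 the lowest, at -0.19, -0.17, -0.16, -0.15 and -0.15, none of which passed. The Rplp1 call was lost without replicate 1 of knockdown plus TNF (edgeR adjusted p = 0.0512), which left 0 genes called higher, and without replicate 3 of the knockdown 3 were called higher. Without replicate 1 of the knockdown 4 genes were called lower, and without replicate 3 of TNF 1 was.

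**Figure D4:**
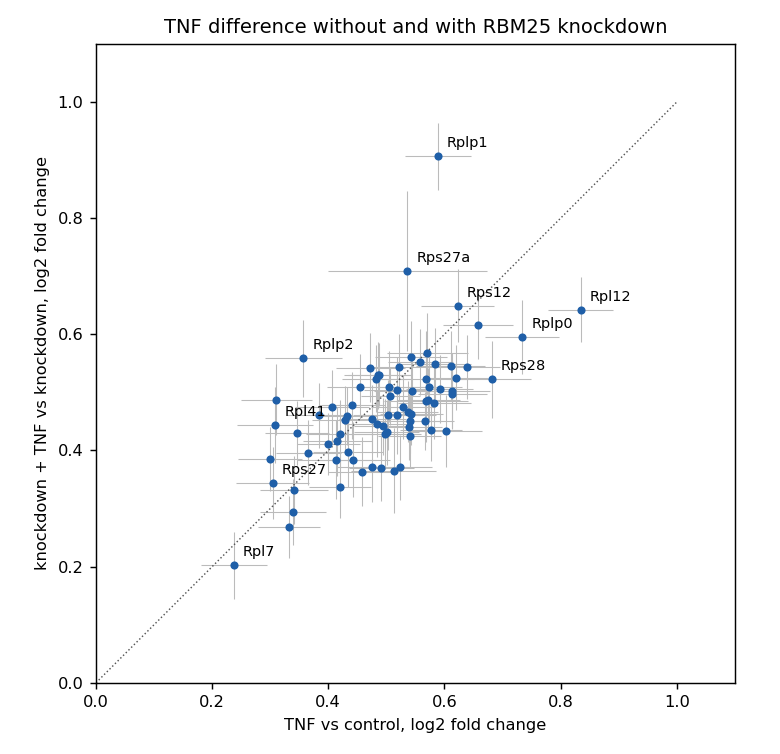
TNF log2 fold change without the knockdown (x axis) against that with the knockdown (y axis) for the 76 ribosomal protein genes; bars are standard errors and the dotted line marks equal values. The genes lie close to the line, with Rplp1 furthest above it at 0.59 and 0.91 and Rpl12 and Rplp0 below it.

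The comparison of knockdown with control asked which genes change when RBM25 alone is reduced. Of the 76 genes 20 fell and 2 rose, with a median log2 fold change of -0.05. Over all genes 28.2% fell and 24.4% rose. The share of ribosomal protein genes that fell, 26.3%, was near that background and the share that rose, 2.63%, was below it. Among other genes in the shortest of 10 length bins (up to 1331 bases) at 100 CPM or more, 39.6% fell and 30.7% rose. Both shares of the 76 genes were below these. Rplp1 fell most (edgeR log2 fold change -0.47 ± 0.06 SE, adjusted p = 1.64e-06). Rpl11 was at 302, 302 and 301 CPM in control and 224, 229.8 and 272 CPM in knockdown libraries (edgeR log2 fold change -0.32 ± 0.06 SE, adjusted p = 0.000187). Rplp0 was at 745, 777 and 796 and 584, 639 and 716 CPM (edgeR log2 fold change -0.26 ± 0.06 SE, adjusted p = 0.00233), and Rps27 had a log2 fold change of -0.26. In these 4 genes every knockdown library lay below every control. Rps27a was at 260.0, 286 and 283 CPM in control and 246, 168 and 244 CPM in knockdown libraries, -0.33 on the log2 scale, and did not pass (edgeR adjusted p = 0.0688). The genes that rose were Rpl36a and Rpl18, at 0.17 and 0.16, beside Rps26, Rpl12 and Rpl29 at 0.20, 0.12 and 0.12, which did not pass. Of the 10 hair cell markers 9 rose and 0 fell in the same comparison (median log2 fold change 1.30), with sums of 363 to 378 CPM in control and 569 to 809.7 CPM in knockdown libraries and none at 0 in all libraries. Of the 12 supporting cell markers 2 rose and 5 fell, with sums of 14434 to 14909 CPM and 10952 to 11524 CPM, and of 25 cell cycle genes 18 rose and 0 fell (median 0.89). Their part in the ribosomal protein differences was not tested.

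These knockdown counts depended on single libraries. Replicate 3 of the knockdown was the highest of its group in 75 of the 76 genes and replicate 1 the lowest in 69. Without replicate 3 of the knockdown 34 genes fell and 0 rose, without replicate 1 11 fell and 12 rose, and without replicate 2 11 fell and 0 rose. The count of genes that rose was 0 without replicate 1 or replicate 2 of the control and 1 without replicate 3. The split also moved with the scaling, from 2 higher and 20 lower to 5 and 16 with DESeq2's size factors, 5 and 16 with scaling factors computed without the 76 genes, and 8 and 12 with no filter on low counts. Rplp1, Rpl11 and Rplp0 stood below control in each of the 3 libraries.

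Among organoids given TNF, the knockdown was followed by lower levels of 24 of the 76 genes and a higher level of 1 (knockdown plus TNF against TNF), with a median log2 fold change of -0.08. The background was 26.9% lower and 25.4% higher, and 31.6% of ribosomal protein genes fell. Rplp0 fell most, from 1333, 1293 and 1229.6 CPM in TNF to 961, 1016 and 952 CPM in knockdown plus TNF libraries (edgeR log2 fold change -0.40 ± 0.06 SE, adjusted p = 4.31e-05). Rps23, whose protein sits in the decoding centre, Rps25, Rpl4 and Rpl11 followed, at -0.32, -0.26, -0.26 and -0.25. Rpl41 rose, from 623, 592 and 547 to 665, 714 and 699 CPM (edgeR log2 fold change 0.24 ± 0.07 SE, adjusted p = 0.00493), and Rps26, Rplp2, Rpl18 and Rpl27 had values of 0.16, 0.13, 0.12 and 0.11 without passing. Of the 7 exit tunnel genes 4 fell, and so did both 5S particle genes, Rpl5 at -0.17 and Rpl11. Of the 10 hair cell markers 8 rose and 0 fell in the same comparison (median log2 fold change 1.03), with sums of 311 to 354 CPM in TNF and 424 to 526 CPM in knockdown plus TNF libraries and none at 0 in all libraries. Of the 12 supporting cell markers 2 rose and 6 fell, with sums of 7280 to 8083 CPM and 6317 to 6652 CPM, and of 25 cell cycle genes 16 rose and 1 fell (median 0.74). The part of these cells was not tested. The knockdown difference without TNF and that with TNF share no library, and over the 76 genes they correlated at r = 0.71 (rho = 0.78), again as a description. The number that fell was 15 without replicate 3 of knockdown plus TNF, and the number that rose was 2 without replicate 1 of TNF or replicate 1 of knockdown plus TNF. It was also 11 lower and 5 higher with scaling factors computed without the 76 genes, and 50 lower and 1 higher with scaling within bins of gene length.

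Ribosomal protein transcripts are short, with a median gene length of 792 bases in the FPKM table against 3680 over all genes tested in the organoids, and the TNF difference moved with gene length in the other genes too. Among the genes that are not ribosomal protein genes, the median log2 fold change with TNF went from 0.12 in the shortest of 10 length bins (up to 1331 bases) to -0.11 in the longest (9848 bases or more). With the knockdown it went from 0.18 to -0.18. Among other genes of the shortest bin at 100 CPM or more, 63.4% rose with TNF and 72.3% with TNF on the knockdown background. Within the ribosomal protein genes the length went weakly with the TNF difference (r = 0.17, rho = 0.12, n = 76 genes). The 57 in the shortest bin had a median of 0.50, the 12 and 5 in the next bins 0.51 and 0.51, and the 2 in longer bins, Rps20 at 0.57 and Rps15a at 0.61. When each library was scaled within length bins, 75 of the 76 genes rose with TNF with a median of 0.39, and 73 with a median of 0.28 on the knockdown background. Rpl7 was then at -0.00 on the knockdown background. The part of length in the remaining differences was not tested. Rps20 and Rps15a were named here for their length, after their values were seen.

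**Figure D5:**
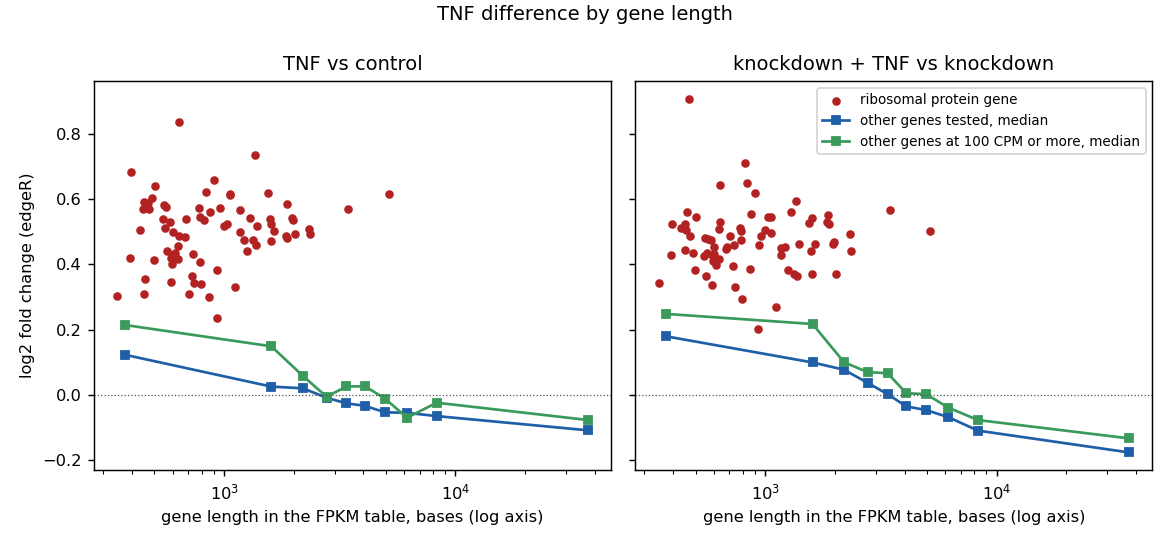
Log2 fold change with TNF (y axis) against gene length (x axis, log scale, bases), without the knockdown (left) and with it (right); red points are the 76 ribosomal protein genes and squares are medians of the other genes in 10 length bins, for all tested and for those at 100 CPM or more. The medians of the other genes fall with length from 0.12 to -0.11 (left) and from 0.18 to -0.18 (right), and all but a few red points lie above the medians at their length.

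Genes that act with the ribosome were counted in lists chosen by function, beside the 23.3% of all genes that rose and 24.2% that fell with TNF. Of 54 ribosome assembly factors 49 rose with TNF and 0 fell (median log2 fold change 0.38), and 43 rose on the knockdown background. Ddx21, an RNA helicase of the nucleolus, was at 0.77, Dkc1, the pseudouridine synthase, at 0.73 and Tsr1, which matures the small subunit, at 0.81. Of 20 other transcripts listed as having a terminal oligopyrimidine tract, some of them noncoding such as Snhg1, 18 rose and 1 fell. Among them Npm1 (nucleophosmin) was at 0.70 and Hnrnpa1 at 0.60. Of 8 elongation factor genes 7 rose and 1 fell, with Eef1a1 at 0.62 and Eef1b2 at 0.57. Among 30 initiation factors 21 rose, led by the helicase Eif4a1 at 0.72, and among 23 genes of aminoacyl tRNA synthetases 18 rose. Of 17 genes of RNA polymerase I and its factors 10 rose and 1 fell. The regulators of mTORC1 and MYC were near those background shares, with 4 of 22 higher and 6 lower, and Myc itself, a transcription factor of ribosome genes, was at 2.87 (SE 0.12). Of 21 NF-kB targets 19 rose, with Nfkbia, the inhibitor of NF-kB, at 4.11.

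Sets of short genes with other functions were set beside them. Of 78 mitochondrial ribosomal protein genes 50 rose with TNF and 1 fell (median 0.23), and of 52 short genes of oxidative phosphorylation 42 rose and 0 fell (median 0.24), both with smaller medians than the 0.51 of the cytosolic genes. With the knockdown 31 of 52 oxidative phosphorylation genes rose and 0 fell (median 0.20), while among the 76 cytosolic genes 20 fell and 2 rose. Of the 23 tRNA synthetase genes 12 fell and 1 rose with the knockdown, and of the 54 assembly factors 13 fell and 8 rose, beside 28.2% lower and 24.4% higher over all genes. The assembly factors thus lay at or below the background in both directions. No test compared the lists with each other.

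Genes whose names fall outside the rule behaved in part like the 76. Fau, which encodes a small subunit protein as a fusion with a ubiquitin-like protein, and Rack1, a scaffold on the small subunit, both rose with TNF, at 0.34 and 0.57. Rack1 went from 571, 561 and 595 to 875, 862 and 834 CPM. The 4 tested paralogs of ribosomal protein genes rose with TNF as well, Rps27l at 0.65, Rpl22l1 at 0.48, Rpl36al at 0.42 and Rpl7l1 at 0.28. With the knockdown, however, Rpl22l1, Rps27l and Rpl7l1 rose, at 0.39, 0.28 and 0.21, while Rpl22, the gene that Rpl22l1 resembles, fell by 0.19 on the log2 scale (edgeR adjusted p = 0.00334). Rpl22l1 was at 48.1, 48.0 and 49.4 CPM in control and 60.0, 59.7 and 71.4 CPM in knockdown libraries, and Rpl22 at 286, 293 and 291 and 238, 252 and 273 CPM. Among organoids given TNF the knockdown difference was 0.63 for Rpl22l1 and -0.24 for Rpl22 (edgeR adjusted p = 7.1e-08 and 0.000426). Rps27, likewise, was at -0.26 where its paralog Rps27l was at 0.28. Rpl7, the gene that Rpl7l1 resembles, did not show this opposite movement, as its control and knockdown libraries, given above, overlapped. The remaining tested paralog, Rpl36al, went the other way. With the knockdown it was at -0.18 (edgeR adjusted p = 0.0262), while Rpl36a rose.

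In the inner ear the comparison of ages asked which genes change over adult life. Between 3 and 20 months 4 of the 76 genes rose and 0 fell, with a median log2 fold change of 0.14, and over all 15525 genes 12% rose and 10.7% fell, so fewer ribosomal protein genes passed than the background (5.26%). The 4 were Rpl12, Rps24, Rps26 and Rps15a. Rpl12 was at 113, 138, 131 and 143 CPM at 3 months and 181, 158, 146 and 162 CPM at 20 months (edgeR log2 fold change 0.30 ± 0.09 SE, adjusted p = 0.0242), and its 2 groups did not overlap. Rps24 had a log2 fold change of 0.27, Rps26 of 0.25 and Rps15a of 0.21. Rpl39 and Rps12, at 0.29 and 0.29, did not pass (edgeR adjusted p = 0.0611 and 0.0546). At the low end Rpl27, Rpl15, Rps14, Rpl9 and Rpl14 had values of -0.02, -0.00, 0.01, 0.04 and 0.04. Of the 76 values 74 were above 0, and 17 had an unadjusted p under 0.05. The shares of all genes for these 2 counts were not computed, and the all-gene median log2 fold change was 0.01. The 76 genes share libraries, so the counts are not independent. Leaving out 1 library, the median of the 76 ran from 0.07 (without replicate 1 of 3 months, 66 values above 0) to 0.17 (without replicate 3 of 20 months, 76 above 0). The groups did not overlap in 7 of the 76, beside 11.4% of all genes. When libraries of 3 months were left out the number that rose was 0 (replicate 1), 1 (replicate 2) and 1 (replicate 4). When libraries of 20 months were left out it was 0 (replicate 1), 2 (replicate 2), 12 (replicate 3) and 0 (replicate 4).

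Between 3 and 11 months edgeR called 0 of the 76 genes higher and 0 lower, beside 0.979% and 0.58% of all genes, and DESeq2 called 0 as well, with 1 gene at an unadjusted p under 0.05. The median log2 fold change was -0.08. The highest values included those of Rpl3, Rpl4, Rps26 and Rps2 (0.06 to 0.01) and the lowest included those of Rpl41, Rpl36, Rpl34 and Rps10 (-0.23 to -0.18). Between 11 and 20 months 15 of the 76 rose and 0 fell, 19.7% beside 7.87% of all genes higher and 7.9% lower, with a median log2 fold change of 0.22. Rps27 was at 164, 129, 135 and 149.6 CPM at 11 months and 215, 193, 170.3 and 178 CPM at 20 months (edgeR log2 fold change 0.39 ± 0.11 SE, adjusted p = 0.0357), without overlap. Rps12 and Rps20 followed at 0.35 and 0.34. Rps27a and Rpl21, at 0.35 and 0.32, did not pass. The values closest to 0 included those of Rpl15, Rpl27, Rpl3 and Rpl7a (0.02 to 0.10). The groups did not overlap in 19 of the 76, beside 10.1% of all genes. The 20 month libraries are shared by both comparisons that include them. The count of 15 fell to 0 without any 1 of replicates 2, 3 and 4 of 11 months or replicates 1, 2 and 4 of 20 months, and was 39 without replicate 3 of 20 months.

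Single libraries moved the whole set in the inner ear. Replicate 1 of 20 months was the highest of its group in 76 of the 76 genes and replicate 3 the lowest in 67. Replicate 1 of 3 months was the lowest of its group in 74, replicate 2 of 11 months the lowest in 69 and replicate 1 of 11 months the highest in 71. Rps24, for example, was at 282, 333, 332 and 333 CPM at 3 months, 357, 284, 311 and 301 at 11 months and 435, 390.3, 353 and 365 at 20 months. Other cell types moved with age in the same libraries: all 9 macrophage markers rose between 3 and 20 months, from a summed 137 to 176 CPM to 265 to 488 CPM, with 279 to 315 CPM at 11 months. The mean log2 level of the 13 marrow and blood markers (each taken as CPM plus 1) was highest in replicate 1 among the 20 month libraries, 5.06 against 2.64 to 3.99, and lowest in replicate 1 among those of 3 months, 2.56 against 3.06 to 4.47. No marker of either list was at 0 in all libraries. At 11 months that marker level was 3.22, 4.33, 2.41 and 2.70 in replicates 1 to 4, highest in the library that was lowest in ribosomal protein counts. The part of these cells in the ribosomal protein differences was not tested.

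The 76 genes moved together from library to library. Within groups the median correlation between 2 of the genes over 12 libraries was 0.88 in both tables, and 97.6% of the 2850 gene pairs for inner ear tissue and 99.9% for organoids were positive, a description of libraries that also share depth and scaling. The values that follow were taken over all 12 libraries of a table, so they include differences between groups, such as that with TNF. The coefficient of variation over the 12 inner ear libraries had a median of 10.4%, from 4.64% in Rpl15 to 20.3% in Rps27a. Over the 12 organoid libraries it had a median of 18.7%, from 9.00% in Rpl7 to 28.0% in Rplp1. The other genes whose log2 CPM went most closely with the mean of the 76 included, in the organoids, Rps3a1 (r = 0.997 over 12 libraries), Rala (0.992), Rack1 (0.991), Eef1b2 (0.991), Ppia (0.990), Med11 (0.987), Pomp (0.986), Cct5 (0.984) and Txn1 (0.983). In the inner ear they were Adh1 (r = 0.984 over 12 libraries), Rps3a1 (0.980), Pttg1ip (0.974), Smo (0.962), Tm4sf1 (0.959), Itm2b (0.948), Mfge8 (0.948), Gper1 (0.945), Nab1 (0.942) and Rras (0.942). Rps3a1, the only gene on both lists, is the mouse gene of a small subunit protein whose symbol falls outside the rule.

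Ribosomal protein genes have many processed copies, and this limits each value. GENCODE vM21 names 300 ribosomal protein pseudogenes, of which 8 stand in the inner ear table and 9 in the organoid table, and the authors' handling of reads that match both a gene and a copy is not stated in the labels. An exon of 37 of the 76 genes overlaps another annotated gene, in 15 cases a protein-coding one. Examples are Lrsam1 at Rpl12, Kank3 at Rps28 and Clhc1 at Rps27a, all on the opposite strand. Gm45713 at Rpl13a and RPS10-NUDT3 at Rps10 lie on the same strand. Whether counting used the strand is not stated in the labels. Levels of these genes are uncertain to that extent.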

How the data were processed

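RNA was measured in 24 libraries, prepared with a TruSeq RNA kit and sequenced on an Illumina HiSeq per the labels' protocols. The deposited count tables hold the authors' counts of reads per gene, not normalized, and the deposited FPKM tables hold the authors' values scaled to gene length and library depth. The tools listed in the submitters' processing notes are HISAT2, HTSeq, Trimmomatic and DESeq2, without versions, and the build is mm10. Each count table was fitted whole with edgeR 4.0.16 in R 4.3.3, over its 12 libraries with 1 coefficient per group, TMM factors, filterByExpr (15525 and 15888 genes kept) and the robust quasi-likelihood F-test, two-sided. The Benjamini-Hochberg adjustment ran over all genes tested in each of 8 comparisons, with 0.05 as the threshold. CPM used TMM-scaled library sizes. Gene lengths came from the ratio of counts to FPKM. Biological coefficients of variation were 19.8% for inner ear tissue and 8.04% for organoids, and replicates differed by more than sampling noise (chi-square per degree of freedom 16.5 to 90.0 and 4.73 to 36.7). On simulated counts 76.0% of genes changed 2-fold were called in the comparison of 20 with 3 months and 92.0% in that of TNF with control. The largest differences of the 76 genes there were 1.23-fold and 1.78-fold, so these rates do not hold for them.

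The members and the gene lists were chosen with earlier results of these data known. Genes are named by a rule: the 5 highest and 5 lowest log2 fold changes of each comparison, the 8 highest by mean FPKM in each table, every gene of the stalk, 5S, extraribosomal and X-linked lists, and, beyond the 76, Rbm25, Tnf, subunit genes outside the name pattern, paralogs, up to 3 genes per other list and the 10 most correlated genes per table. Other genes named were chosen after their values were seen, and some genes that the rule names are not reported here. Alternatives were DESeq2 1.42.0 size factors and its Wald test, no count filter, only the groups compared, a replicate block, scaling within 10 bins of gene length with and without that block, scaling without the 76 genes, and leaving out each library. Promoter entries and coordinates came from RefSeq (GRCm38.p6) and overlapping exons from GENCODE vM21.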

Additional observations from a re-analysis of the deposited data

Results flagged for a closer look

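In groups of 4 libraries, a library was singled out when its gap to the nearest other library exceeded Dixon's critical value. Of 99 groups tested 12 met this. The single genes came from the highest, lowest and called differences between ages in these same libraries. The rate of about 1 in 20 for independent groups not picked this way is therefore no yardstick for this count. Replicate 1 of 3 months was low in the share of counts held by the 76 ribosomal protein genes (1.44%), by the large subunit genes (0.895%) and by the small subunit genes (0.545%). Among single genes the same library was low in Rpl17 (182 CPM), Rpl27 (92.6 CPM), Rpl32 (147 CPM), Rpl7a (188 CPM), Rps24 (282 CPM) and Rps27 (128 CPM). Replicate 1 of 11 months was high in Rplp0 (354 CPM) and Rps12 (149 CPM), and replicate 1 of 20 months in Rps26 (194 CPM). The genes share these libraries, so the values are not independent. In the organoids the TNF difference of Rplp1 was larger with the RBM25 knockdown than without it by 0.32 on the log2 scale (edgeR interaction, adjusted p = 0.0145).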

How the results depend on the processing

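With TNF the count of genes that rose was 74 to 76 under every alternative without the knockdown and 73 to 76 with it, and 0 fell in any. Rpl7 on the knockdown background reversed to -0.00 (-0.0025 with scaling within length bins and -0.0017 with the block added). For 20 against 3 months the 4 genes that rose became 2 with DESeq2's size factors, 2 without the count filter, 1 with only the groups compared, 0 with the replicate block and 12 with length bins (0 to 12 leaving out a library). For 20 against 11 months the 15 became 6 without the filter, 24 with DESeq2's test, 0 with the replicate block, 5 with length bins and the block, and 7 with scaling without the 76 genes (0 to 39 leaving out a library). For knockdown against control the 2 that rose became 5 with size factors, DESeq2's test, only the groups compared or scaling without the 76, 8 without the filter, 6 with length bins and 4 with the block added (0 to 12 leaving out a library), and the 20 that fell became 12 without the filter (11 to 34 leaving out a library). For knockdown plus TNF against TNF the 1 that rose became 2 with size factors or DESeq2's test, 3 with only the groups compared and 5 with scaling without the 76 (1 to 2 leaving out a library), and the 24 that fell became 50 with length bins, 49 with the block added and 11 with scaling without the 76 (15 to 29 leaving out a library). For the interaction the 0 lower became 1 with DESeq2's test, 4 with length bins and 3 with the block added (0 to 4 leaving out a library, and 0 to 3 for the 1 higher). The causes of these changes were not tested. Of 39 results for named genes, 386 values under alternatives kept direction and call, 40 lost the call and 2 reversed. Leaving out 1 of 3 replicates leaves 2 libraries in a group, and the spread is then estimated mostly from the others. No alternative scaling moved the median of all genes by 0.1 or more. Same-numbered replicates deviated together in few sets. In the inner ear r ran from -0.27 to 0.23, over 0.1 in 3 of 12 sets. In the organoids it ran from -0.05 to 0.30, over 0.1 in 2 of 18. Those 2 were control with knockdown, at 0.30 for replicate 1 and 0.23 for replicate 3. Replicates 1 and 3 crossed between these groups were at -0.25 and -0.27. The labels do not say what equal numbers share. Under the replicate block the TNF counts stayed at 76 and 76, and the 2 higher and 20 lower knockdown calls were kept.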
